A study of Mus musculus with 200 samples.

Results

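Synaptic vesicle release depends on a small set of protein families, and 57 of their genes were followed here through the first 3 days after closed head injury (CHI). Members were chosen by symbol: the numbered synaptotagmins (Syt), syntaxins (Stx) and vesicle-associated membrane proteins (Vamp), the synapsins, SV2 proteins, complexins, Unc13 proteins and Rab3 GTPases, and Snap23, Snap25, Snap29, Snap47 and Snap91. Of 61 matching symbols among the 56941 genes listed in the files, 57 had at least 10 counts in at least 20 mice. The other 4, Cplx4, Stx19, Syt8 and Vamp9, did not reach that level. Stx11 had too few counts to be tested in 13 of the 15 comparisons of CHI with sham, and the remaining 56 members were tested in all of them.

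A synaptic vesicle fuses when Vamp proteins on its membrane zip together with syntaxins and Snap25 on the plasma membrane, forming the SNARE complex. Unc13 proteins prime the vesicle, complexins hold the partly assembled complex, and a synaptotagmin that binds calcium triggers fusion. Synapsins tether the reserve pool, Rab3 GTPases guide vesicles to the release site, and other syntaxins and Vamps serve the Golgi, endosomes and autophagosomes of every cell.

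Bulk RNA sequencing was performed on one brain hemisphere from each of 200 mice, collected at 9, 24 or 72 h after CHI or sham surgery. CHI was a single midline impact on the closed skull, and sham mice were anaesthetized and had the scalp opened. The mice were labelled C57BL/6J, the wild-type strain, or carried one of 3 labels named for the interleukin-1 receptor: IL-1R1 gKO, IL-1R1 eRestore or IL-1R1 nRestore. How those alleles were made and in which cells they act was not given in the sources used here, and the study's methods describe the surgery and the tissue for the C57BL/6J mice. At 9 h the groups held 15 CHI and 6 sham C57BL/6J mice, 13 and 6 IL-1R1 gKO mice, 12 and 6 IL-1R1 eRestore mice, and 6 and 4 IL-1R1 nRestore mice, 46 CHI and 22 sham mice in all. There were 43 CHI and 22 sham mice at 24 h, and 44 CHI and 23 sham mice at 72 h. Ages ran from 3.3 to 5.17 months at 9 h, 4.3 to 7.4 months at 24 h and 4.5 to 7.67 months at 72 h. Both sexes were present in every group except IL-1R1 nRestore at 72 h, where all mice were male.

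Libraries held 14857985 to 57355676 estimated counts (median 20258936). Neuronal genes marked the tissue in every mouse, with Rbfox3, a nuclear protein of mature neurons, at 100.8 TPM or more and Map2, a dendritic microtubule protein, at 438 TPM or more. Il1r1 was not lower in the mice labelled IL-1R1 gKO, where its median was 3.94 TPM (n = 55) against 2.00 TPM in C57BL/6J (n = 61), and a gene total does not separate exons, so the strain labels could not be checked this way. The 9 h mice came from 3 experiments that held no later time point, so time point and experiment cannot be told apart when 9 h is set against later times. Striatum markers (the summed TPM of Drd1, Drd2, Ppp1r1b, Adora2a and Rgs9) had medians of 173.4, 251 and 506 TPM in those 3 experiments, while the experiments at 24 and 72 h had medians of 688 to 840 TPM. Ttr, made by the choroid plexus, exceeded 100 CPM in 16 of 68 mice at 9 h, 9 of 65 at 24 h and 3 of 67 at 72 h. In bulk tissue, fewer cells of a type and less RNA per cell cannot be told apart.

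The release machinery was among the abundant transcripts of these hemispheres. On the TPM scale, which allows genes to be compared because it corrects for length, Snap25 led the members with a mean level of 3594 ± 332 TPM (SD, n = 200) and ranked 22 among all genes. The vesicle SNARE Vamp2 followed at 1065 ± 143.9 TPM and the fast calcium sensor Syt1 at 894 ± 194.5 TPM. Cplx1, Rab3a and Cplx2 lay between 603 and 654 TPM. The highest members of the other role groups were Syt11 (381 TPM), Syn2 (296 TPM), Sv2b (222 TPM), Syt5 (202 TPM), Snap91 (180.9 TPM), Stx7 (130 TPM) and Unc13a (78.0 TPM). At the other end stood Syt15 at 0.480 ± 0.229 TPM and Stx11, a syntaxin of immune cells, at 0.158 ± 0.172 TPM. All members together summed to 8333 to 15141 TPM per mouse (median 11943).

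At 9 h members were called in both directions after CHI, often within the same family. With the 4 strains together, 18 of 56 members passed the test, 10 higher and 8 lower after CHI. Among all genes tested, 26.5% were called (12.7% higher and 13.8% lower), so the members' share of 32.1% was near that of all genes. The median log2 fold change over members was 0.02, against -0.01 over all genes tested. None of 10 core genes (Syt1, Snap25, Vamp2, Stx1a, Syn1, Sv2a, Cplx1, Cplx2, Unc13a and Rab3a) was called at 9 h by edgeR with Benjamini-Hochberg adjustment. Their log2 fold changes lay between -0.08 and 0.06, with SEs of 0.03 to 0.06 and adjusted p of 0.19 to 0.905.

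**Figure D1:**
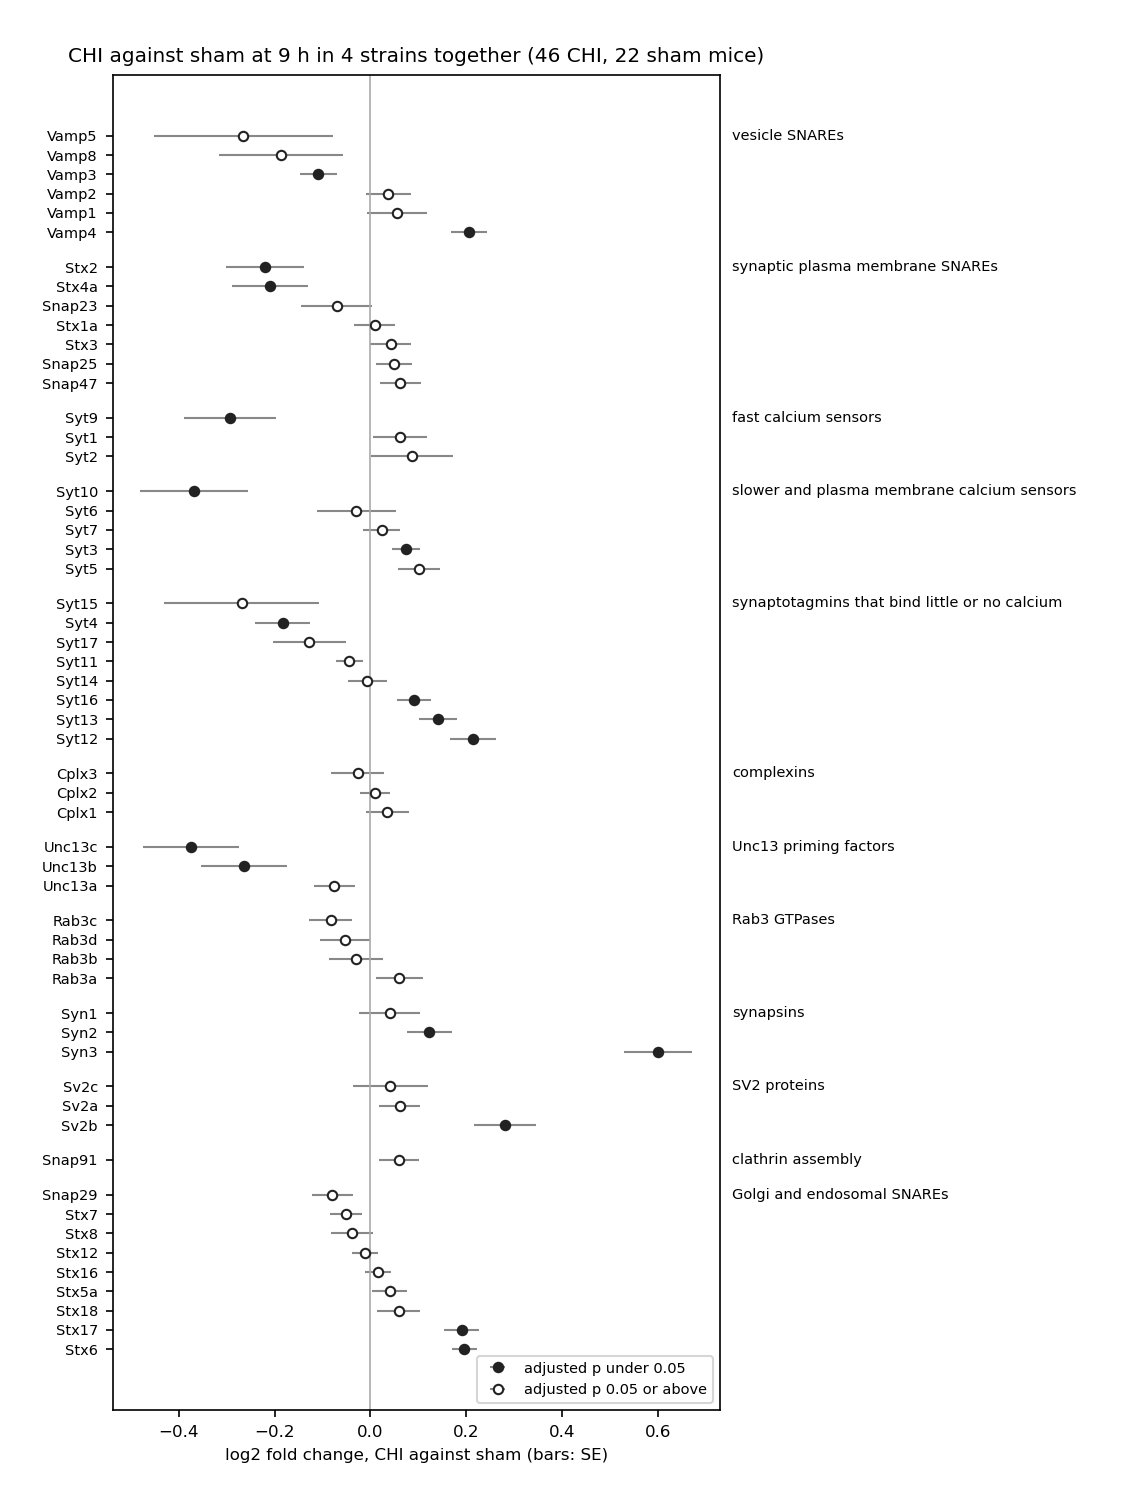
Log2 fold change of CHI against sham at 9 h (x axis, bars: SE) for the members tested except 1 that is not shown, grouped by role, in 46 CHI and 22 sham mice of 4 strains. Filled points passed an adjusted p under 0.05; Syn3 stands farthest to the right at 0.60, and Unc13c and Syt10 farthest to the left at -0.37.

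Syn3, a synapsin best known from developing and hippocampal neurons, showed the clearest rise (ENSMUSG00000059602, GRCm39 chr10:85884617-86334773, minus strand). At 9 h its level was 7.90 to 16.7 CPM (normalised count share, comparable between mice but not between genes) in sham mice (median 12.2) and 13.2 to 26.8 in CHI mice (median 18.2). Above every sham mouse lay 30 of the 46 CHI mice, and none lay below. The log2 fold change was 0.60 ± 0.07 (SE, adjusted p = 9.63e-10). By 24 h the medians were 11.2 in CHI and 10.4 in sham mice, and at 72 h they were 11.9 and 11.1. Within strains, the 9 h medians were 21.6 against 12.9 in C57BL/6J, 17.6 against 12.4 in IL-1R1 gKO, 18.1 against 11.6 in IL-1R1 eRestore and 15.9 against 10.6 in IL-1R1 nRestore. The 4 IL-1R1 nRestore sham mice had 7.90, 8.98, 12.2 and 12.6, all below the lowest of the 6 CHI mice at 13.9. In the other strains the groups overlapped, with 11 of 15, 8 of 13 and 11 of 12 CHI mice above all sham mice in C57BL/6J, IL-1R1 gKO and IL-1R1 eRestore.

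Each of the 3 experiments at 9 h gave a rise of Syn3 by itself, with log2 fold changes of 0.67 ± 0.13 in TM-2-33, 0.62 ± 0.12 in eIL-1-76 and 0.54 ± 0.12 in eIL-1-80 (SE, edgeR adjusted p = 0.0122, 0.00103 and 0.00661). Syn3 shares exonic bases on the opposite strand with 2 genes: 14.6% of its exonic bases with Fbxo7, a ubiquitin ligase subunit, and 8.11% with Timp3, a protease inhibitor. Fbxo7 rose at 9 h by a log2 fold change of 0.41 ± 0.04 (SE, adjusted p = 1.22e-12), and Timp3 had 0.03 ± 0.06 (adjusted p = 0.745). Strandedness of the libraries was not given in the sources used here, so reads of overlapping stretches may not have been told apart, and their part in the Syn3 value was not tested.

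Stx6, Vamp4 and Stx17, which are SNAREs of the Golgi, endosome or autophagosome, gave the next smallest p. Stx6, which serves transport between the trans-Golgi network and endosomes, ranged from 70.5 to 93.4 CPM in sham mice (median 84.9) and from 75.7 to 108.2 in CHI mice (median 97.7) at 9 h. The log2 fold change was small but narrow, 0.20 ± 0.03 (SE, adjusted p = 2.19e-08), and 35 of 46 CHI mice exceeded all sham mice. In C57BL/6J the groups did not overlap, with sham mice between 81.7 and 89.6 and CHI mice between 90.3 and 108.2. The same separation held in IL-1R1 nRestore, where the sham mice had 78.3, 83.7, 87.3 and 88.4 and the 6 CHI mice had 95.3 to 107.2. Groups overlapped in IL-1R1 gKO and IL-1R1 eRestore.

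Vamp4, the partner of Stx6 in endosomal fusion and a carrier of bulk endocytosis at synapses, was at 73.4 to 108.6 in sham mice (median 93.9) and 82.01 to 128.5 in CHI mice (median 107.3). Its log2 fold change was 0.21 ± 0.04 (SE, adjusted p = 1.46e-05), with 18 CHI mice above all sham mice. Stx17, the syntaxin of autophagosome fusion, ranged from 26.3 to 37.7 in sham mice (median 32.0) and from 27.3 to 43.9 in CHI mice (median 36.4). Stx17 rose by 0.19 ± 0.04 (SE, adjusted p = 4.78e-05). It lost the call in 3 of 13 alternative fits, those with DESeq2 gene-length offsets and with TM-2-33 or eIL-1-80 alone. Of the 9 members of the Golgi and endosomal group, only the syntaxins Stx6 and Stx17 passed the test, where 26.5% of all genes were called. The other 7, led in level by Stx7, had log2 fold changes of -0.08 to 0.06, and the median over the group was 0.02. Vamp4 was counted with the vesicle SNAREs.

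Sv2b, an abundant glycoprotein of glutamatergic vesicles, was at 501 to 1011 CPM in sham mice (median 638) and 434 to 1068 in CHI mice (median 841). The ranges overlapped widely, and the log2 fold change was 0.28 ± 0.06 (SE, adjusted p = 0.000595). Neither Sv2a (0.06) nor Sv2c (0.04) was called at 9 h. Syn2, the major synapsin of the reserve pool beside Syn1, had 0.12 ± 0.05 (SE, adjusted p = 0.044), and it lost the call in 7 of 13 alternative fits. Syn2 shares 10.1% of its exonic bases with Timp4 on the opposite strand. Timp4 had 0.13 ± 0.05 at 9 h (SE, edgeR adjusted p = 0.0463), and its part in the Syn2 value was not tested.

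Synaptotagmins moved in both directions. Among the 8 that bind little or no calcium, 3 rose: Syt12, with 30.2 to 50.5 in sham mice (median 40.8) and 37.4 to 62.9 in CHI mice (median 47.1), had a log2 fold change of 0.21 ± 0.05 (SE, adjusted p = 0.000549). Syt13, with 196.4 to 331 in sham mice (median 259) and 204 to 357 in CHI mice (median 292), had 0.14 ± 0.04 (adjusted p = 0.00494). The third was Syt16, at 0.09 ± 0.04 (adjusted p = 0.0466), which lost the call in 9 of 13 alternative fits. Syt4, which modulates release of dense-core vesicles, fell: its log2 fold change was -0.18 ± 0.06 (adjusted p = 0.0119), with 224 to 409 CPM in sham mice (median 299) and 199.8 to 364 in CHI mice (median 279).

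The synaptotagmins that bind calcium were split as well. Syt10, a sensor of growth factor secretion, was a low transcript with 1.48 to 8.28 CPM in sham mice (median 5.82) and 1.07 to 8.66 in CHI mice (median 4.04), and its log2 fold change was -0.37 ± 0.11 (SE, adjusted p = 0.00979). Syt9, a fast sensor related to Syt1, was at 6.47 to 12.5 in sham mice (median 9.46) and 4.69 to 23.6 in CHI mice (median 7.51), with a log2 fold change of -0.29 ± 0.10 (adjusted p = 0.0166). Syt3 had 0.07 ± 0.03 (adjusted p = 0.0486) and lost the call in 7 of 13 alternative fits. Syt1 itself had medians of 1955 in sham and 2158 in CHI mice, and a log2 fold change of 0.06 ± 0.06 (adjusted p = 0.459).

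Of the 3 priming factors, Unc13c and Unc13b were lower. Unc13c, the isoform of cerebellar and other restricted neurons, had 25.9 to 140.8 CPM in sham mice (median 57.9) and 25.9 to 118.2 in CHI mice (median 43.4), and its log2 fold change was -0.37 ± 0.10 (SE, adjusted p = 0.00348). Unc13b was at 26.4 to 61.0 in sham mice (median 40.3) and 20.5 to 56.5 in CHI mice (median 32.1), with -0.26 ± 0.09 (adjusted p = 0.0212), and 8 CHI mice were under the whole sham range. Unc13a, the main priming factor of forebrain synapses, had -0.08 ± 0.04 (adjusted p = 0.19). The other members called lower were SNAREs of the plasma membrane and of widely used vesicles: Vamp3 at -0.11 ± 0.04 (adjusted p = 0.0282), Stx2 at -0.22 ± 0.08 (adjusted p = 0.0342) and Stx4a at -0.21 ± 0.08 (adjusted p = 0.0423). Their sham and CHI ranges overlapped. Of 13 alternative fits, 3 of which hold 1 experiment each, Stx2 lost the call in 7, Stx4a in 6, and Vamp3 and Unc13b in 5 each. Syt9 lost it in 4, Syt10 in 3, and Syt12 and Unc13c in 2 each. No Rab3 GTPase and no complexin was called at 9 h.

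**Figure D2:**
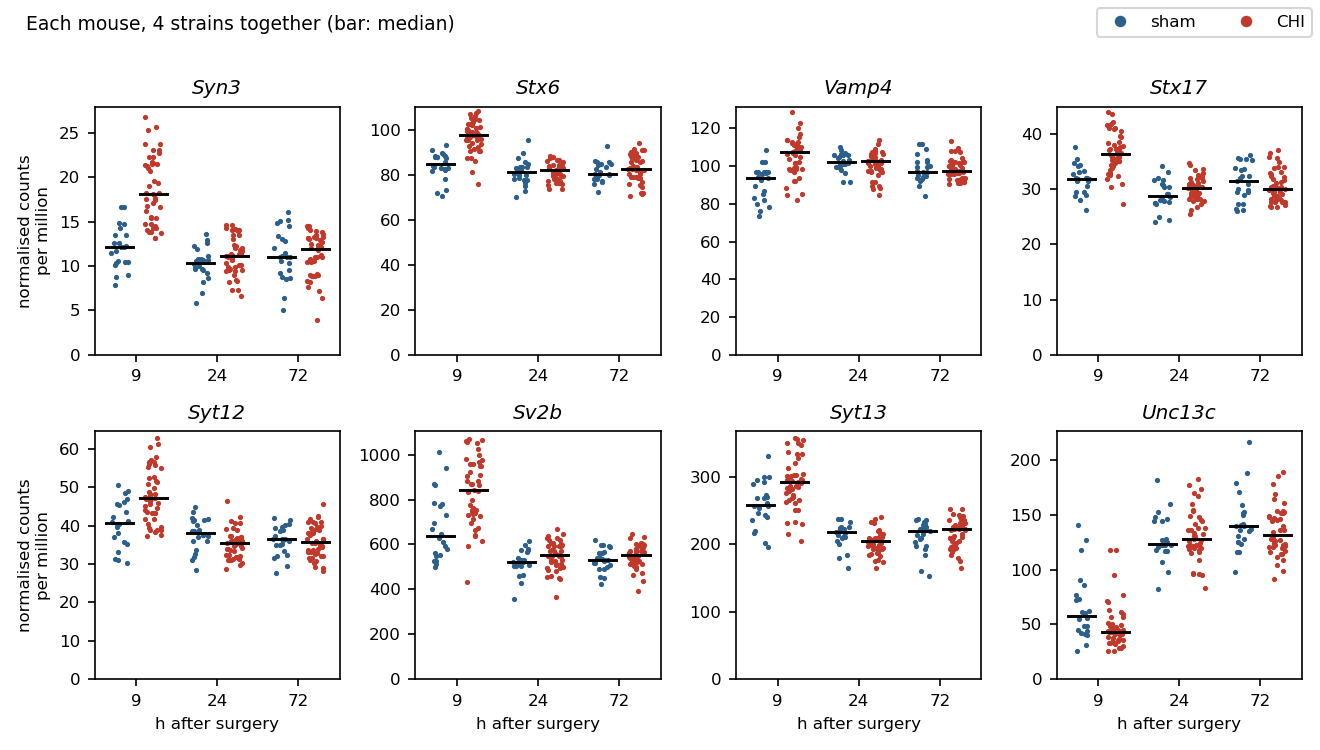
Normalised CPM (y axis, from 0) of the 8 members with the smallest p at 9 h in each of 200 mice, by hours after surgery (x axis), sham in blue and CHI in red, with a bar at the median. Syn3 and Stx6 CHI mice sit mostly above the sham mice at 9 h only, and Unc13c is lower at 9 h than later in both groups.

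Markers of tissue makeup were also called in both directions at 9 h, where 26.5% of all genes were called. At 9 h all 5 choroid plexus markers were lower in CHI, with Ttr at -2.78 ± 0.85 (SE, adjusted p = 0.0107), and their summed level was 10.2 to 6275 TPM in sham mice (median 49.7) against 5.20 to 2523 TPM in CHI mice (median 25.6). Of 5 striatum markers, Drd1 and Drd2 were lower (-0.57 ± 0.13 and -0.96 ± 0.29, adjusted p = 0.000408 and 0.00926), and the sum was 94.2 to 683 TPM in sham mice (median 270) against 121.7 to 726 TPM in CHI mice (median 256). Of 7 microglia markers, 4 were lower, P2ry12 most clearly at -0.62 ± 0.08 (adjusted p = 3.93e-08). All 12 activity-regulated genes, such as Fos and Arc, were lower in CHI at 9 h. Other lists had genes called higher. Of 5 endothelial markers, 3 were higher and 1 lower, and the sum was 134.3 to 263 TPM in sham mice (median 203) and 148.9 to 337 TPM in CHI mice (median 233). Of 4 hippocampus markers tested, Spink8 and Wfs1 were higher (0.87 ± 0.27 and 0.28 ± 0.11, SE), with a sum of 30.7 to 109.9 TPM in sham mice (median 62.8) and 42.5 to 125.99 TPM in CHI mice (median 74.5). Among 8 glutamatergic neuron markers, 2 were higher, Neurod2 at 0.19 ± 0.06 and Camk2a at 0.10 ± 0.04, and the sum was 3612 to 5188 TPM in sham mice (median 4226) and 3077 to 5465 TPM in CHI mice (median 4605). The median log2 fold change over those 8 markers was -0.006. Of 8 astrocyte markers, 3 were higher, Gfap at 0.78 ± 0.11, and 1 was lower, with a median log2 fold change of -0.04 over the list. None of the 5 striatum markers, nor Ttr, was at 0 in any mouse, and the part of the other lists in the members' values, Syn3 and Sv2b included, was not tested.

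Fits that took these markers into account called somewhat fewer members. Adding a striatum score to the fit gave 13 members called, a choroid plexus score 14, and leaving out the mice rich in Ttr 14, with 23.8%, 24.3% and 16.0% of all genes called. Syn3 had log2 fold changes of 0.60, 0.60 and 0.63 in these fits, and Stx6 had 0.18, 0.18 and 0.17, and both stayed called. Vamp4, Stx17, Syt12, Sv2b, Unc13c, Syt13 and Syt10 also stayed called in all of them, Unc13c with a smaller change under the striatum score (-0.24). Syt9 missed the threshold with either score, at adjusted p = 0.0525 with the striatum score and 0.0513 with the choroid plexus score. Syn2 and Syt16 missed it in all 3 fits, Stx2 and Syt3 with the striatum score and without the mice rich in Ttr, Stx4a with the striatum score, Vamp3 with the choroid plexus score and Unc13b without the mice rich in Ttr.

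Each experiment at 9 h was also fitted alone. All 18 members called in the pooled fit kept their direction in all 3 experiments, which is not independent support, since the pooled fit holds the same mice. Syt9 was close to no change in TM-2-33, at -0.01 ± 0.30 (SE). Direction was not the same in every strain. Syt4 had a log2 fold change of 0.01 in IL-1R1 eRestore, Syt9 0.05 in IL-1R1 gKO and Syn2 -0.05 in C57BL/6J. In IL-1R1 nRestore, Syt12 had -0.02 and Syt16 -0.04. With unadjusted p under 0.05 there were 15 of the 18 in eIL-1-76, 11 in eIL-1-80 and 6 in TM-2-33. Called members numbered 9, 9 and 2 of 56, beside 9.48%, 9.5% and 1.97% of all genes.

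Windows upstream of the starts are shown for the 4 members called at 9 h that hold an E-box there. RefSeq promoter windows of GRCm38.p6 (250 bases before to 50 after each start) matched 46 of the 57 members with 60 windows. The E-box CACGTG, the palindromic site of the clock and MYC families of factors, read the same on both strands, lay in 8 of the 60 windows, against 7.15% of all 32851 windows. Those 8 windows belong to Cplx3, Stx6, Sv2b, Syt14, Syt6, Unc13b and Vamp4, of which Stx6, Sv2b and Vamp4 were called higher at 9 h and Unc13b lower, while Cplx3, Syt14 and Syt6 were not called. Both Syt6 windows overlap and hold the same E-box, so this site is counted in each. Syn3, Syt4, Syt12, Syt13 and Vamp3, also called, had no matched window, and the other members called at 9 h had no E-box in theirs. Called and uncalled members were not compared by a test. The cAMP response element TGACGTCA lay in 1 window, that of Syn1, against 1.79% of all windows. The full palindromic glucocorticoid response element, searched on both strands, lay in no member window and in 0.00913% of all. A match is a description of the letters. The 250 bases before the start of the 4 called members follow, 5′ to 3′ on the gene's strand, with the E-box in capitals, for Stx6 at chr1:155158453-155158702 (plus), Vamp4 at chr1:162570265-162570514 (plus), Sv2b at chr7:75302610-75302859 (minus) and Unc13b at chr4:43058703-43058952 (plus).
Stx6: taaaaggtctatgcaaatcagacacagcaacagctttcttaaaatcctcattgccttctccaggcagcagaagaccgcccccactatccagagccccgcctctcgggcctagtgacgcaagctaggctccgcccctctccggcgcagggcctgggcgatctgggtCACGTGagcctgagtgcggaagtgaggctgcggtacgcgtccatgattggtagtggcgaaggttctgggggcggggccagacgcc
Vamp4: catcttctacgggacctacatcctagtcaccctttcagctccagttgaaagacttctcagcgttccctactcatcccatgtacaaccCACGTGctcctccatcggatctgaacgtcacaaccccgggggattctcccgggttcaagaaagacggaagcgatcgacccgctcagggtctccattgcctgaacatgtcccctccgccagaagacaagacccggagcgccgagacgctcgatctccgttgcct
Sv2b: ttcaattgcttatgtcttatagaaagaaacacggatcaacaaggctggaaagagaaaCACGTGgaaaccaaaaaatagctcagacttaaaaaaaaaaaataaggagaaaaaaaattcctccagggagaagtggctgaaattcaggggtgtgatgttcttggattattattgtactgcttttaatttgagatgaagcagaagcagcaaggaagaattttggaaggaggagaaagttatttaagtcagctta
Unc13b: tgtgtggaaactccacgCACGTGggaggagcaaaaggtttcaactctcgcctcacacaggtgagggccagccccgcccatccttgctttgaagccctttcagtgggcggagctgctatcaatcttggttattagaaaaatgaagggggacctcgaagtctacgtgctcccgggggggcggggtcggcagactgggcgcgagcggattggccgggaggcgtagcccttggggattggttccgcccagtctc

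No binding was measured in these mice, and the windows are those of a build older than the one the reads were aligned to.

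Strain by strain, calls at 9 h came from C57BL/6J and IL-1R1 eRestore. All IL-1R1 nRestore mice of 9 h, and 6 CHI and 2 sham IL-1R1 gKO mice, came from TM-2-33. That experiment held no C57BL/6J or IL-1R1 eRestore mouse, so strain and experiment cannot be fully told apart. In C57BL/6J, 11 of 57 members passed the test, 6 higher and 5 lower, where 14.1% of all genes were called (7.05% higher and 7% lower). Those higher were Stx6, Stx17, Syn3, Syt12, Vamp4 and Sv2b, with log2 fold changes from 0.19 ± 0.06 (Sv2b) to 0.67 ± 0.16 (Syn3). The lower members were led by Syt4 at -0.40 ± 0.06 (SE, adjusted p = 0.000131). Syt17, a synaptotagmin without calcium binding found at the Golgi, ranged from 19.6 to 42.8 CPM in the 6 sham mice (median 31.7) and from 18.0 to 31.2 in the 15 CHI mice (median 20.7), and had -0.54 ± 0.13 (adjusted p = 0.00605). Snap29, which works with Stx17 on autophagosomes, had -0.22 ± 0.06 (adjusted p = 0.0195), Unc13b -0.49 ± 0.14 and Syt9 -0.43 ± 0.13. Syt17 had 0.09 in IL-1R1 gKO, 0.03 in IL-1R1 eRestore and -0.02 in IL-1R1 nRestore, and Snap29 had -0.15, 0.04 and 0.07. With the strains together neither was called by edgeR, at -0.13 for Syt17 and -0.08 for Snap29 (adjusted p = 0.227 and 0.171). Within C57BL/6J, Stx6, Stx17, Syt4 and Syt17 stayed called in every alternative fit, and Syn3 in all but the one without the mice rich in Ttr (adjusted p = 0.108). Leaving out 1 sham mouse at a time left 7 (without sham replicate 1) to 12 members called. Syt12 lost its call without sham replicate 1 and Snap29 without sham replicate 5. Sv2b lost it without replicate 3, 4 or 6, Unc13b without 1, 3 or 6, Syt9 without 1, 2, 4 or 5, and Vamp4 without 1, 4, 5 or 6. Over all 16 alternative fits, Vamp4 lost the call in 10, Syt9 in 9, Sv2b in 8, Unc13b in 6 and Snap29 in 3. Vamp4, Syt9 and Sv2b lost it with either tissue score and without the mice rich in Ttr, and Unc13b without those mice. Log2 fold changes of Sv2b ranged from 0.03 to 0.23 over these fits.

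IL-1R1 eRestore gave 9 of 56 members, 6 higher and 3 lower, where 7.34% of all genes were called (4.1% higher and 3.24% lower). Sv2b had a log2 fold change of 0.55 ± 0.09 (SE, adjusted p = 0.00119), with 525 to 785 in the 6 sham mice (median 586) and 642 to 1068 in the 12 CHI mice (median 937). Syn3 had 0.66 ± 0.11, Syt13 0.28 ± 0.07, Syn2 0.25 ± 0.07 and Stx6 0.19 ± 0.05. Syt1 was the only core gene called in a single strain, at 0.29 ± 0.08 (adjusted p = 0.0404), and it lost the call in 9 of 16 alternative fits. Vamp8, a SNARE of secretory cells and late endosomes, had -0.75 ± 0.15 (adjusted p = 0.00643), Unc13c -0.75 ± 0.18 and Vamp3 -0.22 ± 0.06. Elsewhere Vamp8 had -0.27 in C57BL/6J, 0.13 in IL-1R1 gKO and 0.23 in IL-1R1 nRestore. It was not called with the strains together, at -0.19 (edgeR adjusted p = 0.312). The count of 9 fell to 4 with a striatum score, 4 with a choroid plexus score and 3 without the mice rich in Ttr, and ranged from 5 (without sham replicate 2) to 18 (without sham replicate 6) when 1 sham mouse was left out. Sv2b, Syn3 and Vamp8 stayed called in every alternative fit. Stx6 lost the call without sham replicate 2, 3 or 5, Syn2 without 1, 3 or 4, Syt1 without 1, 2, 4 or 5, Vamp3 without 1, 2 or 3, and Unc13c without 1 or 2. Syt13 lost it with the striatum score and without the mice rich in Ttr.

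Mice labelled IL-1R1 gKO and IL-1R1 nRestore had no member called at 9 h by edgeR, with 4 and 8 members at unadjusted p under 0.05, and DESeq2 called 1 and 2. Without sham replicate 6, 1 member was called in IL-1R1 gKO. Only 0.199% and 0.608% of all genes were called there. Syn3 led in IL-1R1 gKO at 0.45 ± 0.11 (adjusted p = 0.0873) and had 0.66 ± 0.22 in IL-1R1 nRestore (adjusted p = 0.219). Stx6 had 0.15 ± 0.07 and 0.20 ± 0.07 in those strains. Syt6 gave the smallest p in IL-1R1 nRestore at -0.35 ± 0.09 (adjusted p = 0.114). Stx11, tested in C57BL/6J, had 1.13 ± 0.40 at 9 h (adjusted p = 0.0588) on very few counts.

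Calls in one strain only do not show a difference between strains, so the difference of the CHI effect from C57BL/6J was tested for each strain and time point. No member was called in any of the 9 tests by edgeR or DESeq2, with 0 to 5 members at unadjusted p under 0.05 by edgeR. Of all genes, 0.0107% (IL-1R1 eRestore) and 0.00534% (IL-1R1 nRestore) were called at 9 h, 0.0108% (IL-1R1 eRestore) and 0.00541% (IL-1R1 gKO) at 24 h and 0.00543% (IL-1R1 nRestore) at 72 h, and none in the other 4 tests. For Syn3 at 9 h the differences from C57BL/6J were -0.24 ± 0.19 in IL-1R1 gKO, -0.03 ± 0.19 in IL-1R1 eRestore and 0.03 ± 0.22 in IL-1R1 nRestore (SE, adjusted p = 0.87, 0.979 and 0.997). These p-values do not show that the strains responded alike, and strain and experiment cannot be fully told apart at 9 h. Likewise no member differed between males and females in the CHI effect at any time point by edgeR or DESeq2, with 2, 5 and 1 members at unadjusted p under 0.05 at 9, 24 and 72 h, where 0.00565% of all genes were called at 72 h and none at 9 and 24 h.

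**Figure D3:**
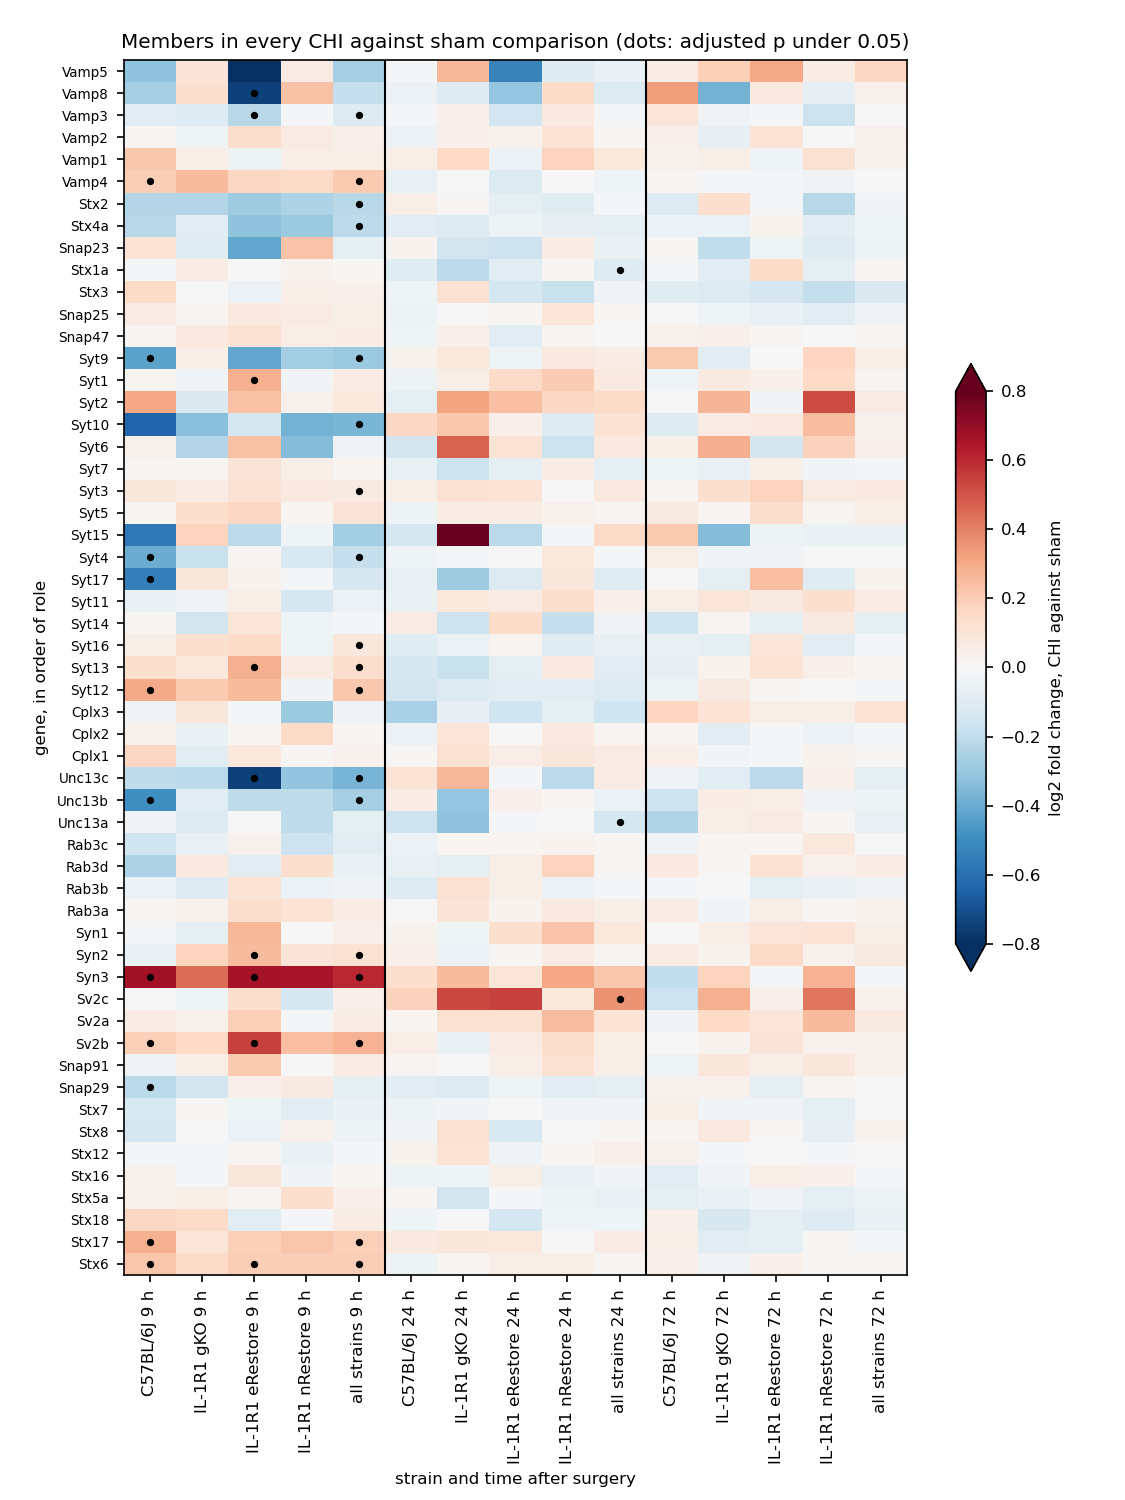
Log2 fold change of CHI against sham (colour) for the same members (rows, in order of role) in 4 strains and the strains together at 9, 24 and 72 h (columns); dots mark an adjusted p under 0.05. Dots stand at 9 h in C57BL/6J, IL-1R1 eRestore and all strains, and at 24 h for Unc13a, Sv2c and Stx1a in all strains; no column at 72 h has a dot.

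At 24 h, 3 of 56 members passed the test with the strains together, 1 higher and 2 lower, where 1.96% of all genes were called (0.826% higher and 1.13% lower). CHI and sham mice were unevenly spread over experiments: NiL-1-21 held 18 CHI mice and 1 sham mouse, and NiL-1-24 held 8 and 12. IL-1R1 eRestore and IL-1R1 gKO CHI mice reached 7.4 months and their sham mice 5.3, while both C57BL/6J groups reached 5.93. The fit held age but no experiment term, so CHI and experiment cannot be fully told apart. Unc13a was at 252 to 386 CPM in sham mice (median 301) and 216 to 319 in CHI mice (median 264), with a log2 fold change of -0.14 ± 0.04 (SE, adjusted p = 0.0322). The lowest sham mouse exceeded 13 of the 43 CHI mice. Unc13a shares 16.7% of its exonic bases with Colgalt1 on the opposite strand, a collagen-modifying enzyme that had 0.03 ± 0.04 at 24 h. Sv2c, the SV2 protein of basal ganglia neurons, was at 40.3 to 110 in sham mice (median 72.5) and 50.2 to 142.8 in CHI mice (median 80.2), and had 0.36 ± 0.10 (adjusted p = 0.0341). Stx1a, a plasma membrane SNARE of the fusion complex, had -0.10 ± 0.03 (adjusted p = 0.0493).

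With a striatum score in the fit, the only member called at 24 h was Cplx3, at -0.18 (adjusted p = 0.0463, against -0.16 and 0.0587 without the score), and none of these 3: Unc13a had -0.13 (adjusted p = 0.0761), Sv2c 0.27 (0.0733) and Stx1a -0.09 (0.134). The log2 fold change of Unc13a stayed between -0.16 and -0.13 in all 8 alternative fits. With no covariates, with the experiment in place of age or with no filter, Sv2c and Stx1a were not called. Striatum markers summed to 421 to 1014 TPM in sham mice (median 753) and 516 to 1255 TPM in CHI mice (median 741) at 24 h. No member was called at 24 h within a strain by edgeR, with 1 to 10 members at unadjusted p under 0.05, while DESeq2 called 0 to 2. In those comparisons 0.404% of all genes were called in C57BL/6J, 0.0059% in IL-1R1 gKO and none in the other 2 strains.

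At 72 h no member was called with the strains together, by edgeR or by DESeq2, where 0.717% of all genes were called, and 3 members had an unadjusted p under 0.05. Cplx3, a complexin of ribbon synapses and some cortical neurons, had the smallest p, with 13.6 to 21.2 CPM in sham mice (median 17.9), 15.7 to 23.2 in CHI mice (median 19.4) and a log2 fold change of 0.11 ± 0.04 (SE, adjusted p = 0.415). Syn2 was next at 0.07 ± 0.03 (adjusted p = 0.469), with medians of 442 in sham and 487 in CHI mice. Single strains gave no call at 72 h either, with 0 to 4 members at unadjusted p under 0.05 by edgeR and none called by DESeq2, where 0.00605% of all genes were called in IL-1R1 eRestore, 0.0121% in IL-1R1 nRestore and none in the other 2.

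The change of the CHI effect with time was tested directly in all 200 mice. From 9 to 24 h the effect differed in 12 of 57 members (8 more positive and 4 more negative at 9 h), where 12.2% of all genes differed (5.96% and 6.22%). From 9 to 72 h it differed in 10 members (7 and 3), where 14.9% of all genes differed (7.24% and 7.64%). Stx6, Vamp4, Syt12, Syn3, Stx17, Sv2b and Syt16 were more positive at 9 h in both, with differences of 0.43 ± 0.11 and 0.61 ± 0.11 for Syn3. Syt4, Syt9 and Syt10 were more negative at 9 h in both. Between 24 and 72 h no member differed by edgeR or DESeq2, with 3 at unadjusted p under 0.05, where 0.0389% of all genes differed. With a striatum score in the fit, 8 and 8 members were called. Both tests share the 9 h mice.

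Sham mice themselves differed between 9 h and later times in most members. Between 9 and 24 h, 35 of 56 members were called in sham mice alone, 25 higher at 9 h and 10 lower, where 48.9% of all genes were called (24.1% and 24.8%). Between 9 and 72 h there were 38 (25 and 13), where 46.8% of all genes were called (23.3% and 23.6%). Between 24 and 72 h none was called by edgeR or DESeq2, with 6 at unadjusted p under 0.05, where 0.03% of all genes were called. Of the 10 core genes, 8 were higher at 9 h in each of the first pair of tests. Syn1 was the highest of them at 0.57 ± 0.07 against 24 h (SE, adjusted p = 2.87e-10), with sham medians of 541, 386 and 407 CPM at 9, 24 and 72 h. Vamp2 had 0.35 ± 0.04, Syt1 0.47 ± 0.08 and Snap25 0.14 ± 0.04. Unc13c went the other way at -1.01 ± 0.13 (adjusted p = 2.80e-09), with sham medians of 57.9, 123.8 and 139.8.

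**Figure D4:**
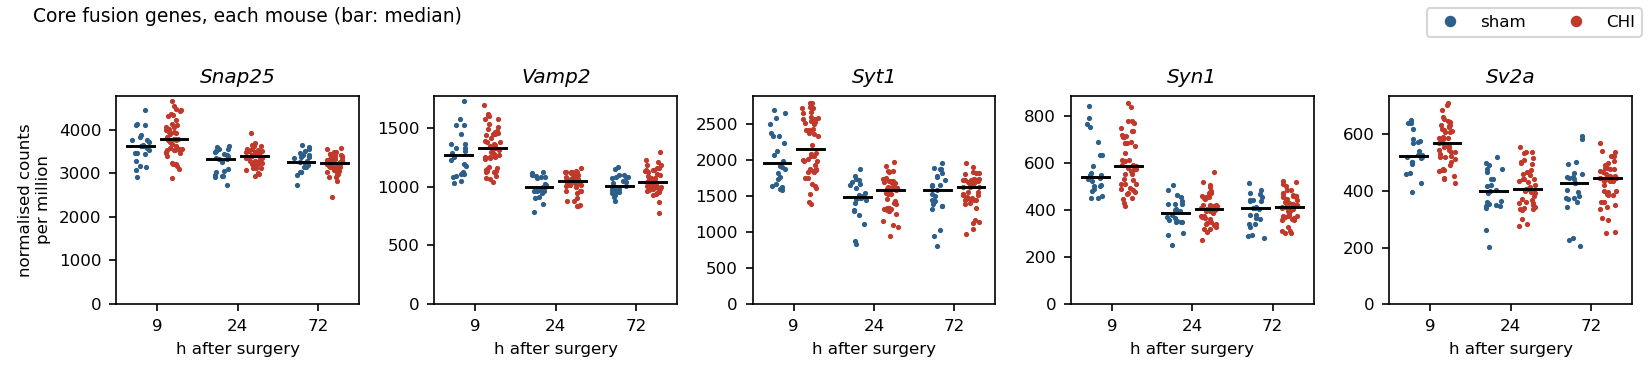
Normalised CPM (y axis, from 0) of 5 core fusion genes in each of 200 mice by hours after surgery (x axis), sham in blue and CHI in red, with a bar at the median. Medians are higher at 9 h than later in both groups, as for Syn1 with sham medians of 541, 386 and 407, and CHI and sham mice overlap at each time.

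With a striatum score in the fit of the sham mice, 26 members were called between 9 and 24 h and 21 between 9 and 72 h, where 29.4% and 24.0% of all genes were called. Time point, experiment and time of day of collection cannot be told apart in these comparisons, and age was not a covariate in them. Most 9 h mice had a lower striatum sum than the later mice, with lower Unc13c and higher Syt13 and Sv2b, and the points share their libraries and their experiments. Within each 9 h experiment, the mouse with the highest sum also had more Unc13c than the mouse with the lowest. These pairs were 70.8 against 28.8 CPM in TM-2-33, 126.6 against 44.1 in eIL-1-76 and 85.7 against 61.5 in eIL-1-80. Some other mice went the other way. In eIL-1-80, C57BL/6J CHI replicate 8, with a sum of 364.5 TPM, had 37.5 CPM, less than the mouse with the lowest sum. In TM-2-33, IL-1R1 nRestore sham replicate 2, with a sum of 603.7 TPM, had 118.1 CPM, more than the mouse with the highest sum. At 24 h the mouse with the lowest sum, at 421 TPM (IL-1R1 gKO sham replicate 6), had 181.9 CPM of Unc13c and 358 CPM of Sv2b. The relation within experiments was not tested. The median sum of TM-2-33, at 506 TPM (215 to 726), lay between those of the other 9 h experiments and those of the later experiments.

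**Figure D5:**
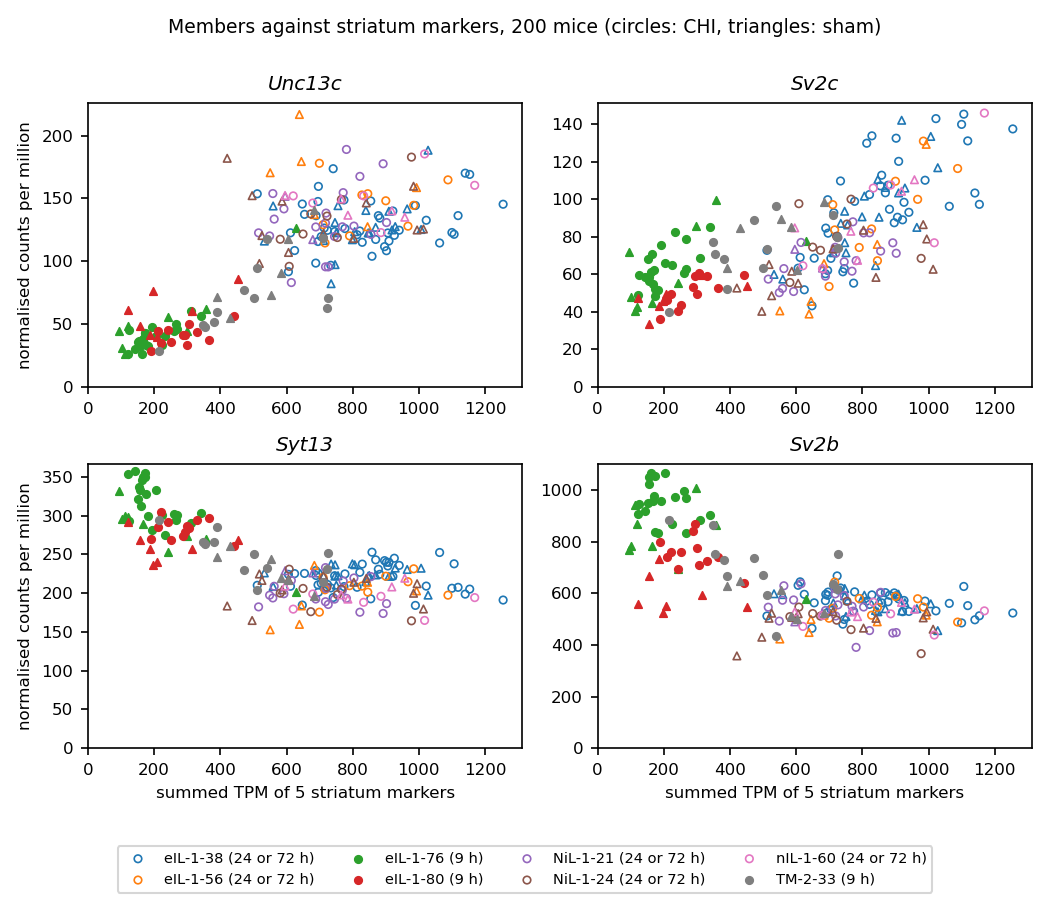
Normalised CPM of Unc13c, Sv2c, Syt13 and Sv2b (y axes) against the summed TPM of 5 striatum markers (x axis) in 200 mice, coloured by experiment, with filled symbols at 9 h, open symbols at 24 and 72 h, circles for CHI and triangles for sham. Most mice of 9 h lie to the left, with Unc13c low and Syt13 and Sv2b high.

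Partners of the members, counted over lists that hold no member, were also called in both directions at 9 h, where 26.5% of all genes were called. Of 13 SM proteins, NSF and SNARE regulators, 3 were higher (Stxbp3, Prrt2 and Napa) and 1 lower (Stxbp5l, a tomosyn that blocks SNARE assembly, at -0.21 ± 0.06, SE). Of 10 other SNAREs, 5 were higher and 1 lower; these serve the Golgi and endoplasmic reticulum, with Ykt6 at 0.19 ± 0.04. Of 14 active zone scaffold genes, Rimbp2, which couples calcium channels to release sites, was higher at 0.43 ± 0.06 (adjusted p = 2.29e-08) and 3 were lower, among them Rims1 at -0.20 ± 0.05. Of 10 other calcium sensors and Rab effectors, 1 was higher (Doc2a, a sensor of spontaneous release, at 0.24 ± 0.04) and 2 lower.

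Of 12 tested among other vesicle membrane proteins, 3 were higher, Svop most clearly at 0.27 ± 0.04 (SE, adjusted p = 1.89e-06), and 1 was lower. Of 12 vesicle endocytosis genes, 4 were higher, led by Amph, which shapes the clathrin-coated bud, at 0.31 ± 0.04 (adjusted p = 4.11e-10), and Itsn1 was lower at -0.20 ± 0.04. The median log2 fold changes of these 6 lists at 9 h lay between -0.17 and 0.07, against -0.01 over all genes tested. At 24 h, where 1.96% of all genes were called, 4 of these partners were called, all lower: Rims1, Rims4, Ppfia3 and Rph3a, with log2 fold changes of -0.12 to -0.09. At 72 h edgeR called none of them.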

How the data were processed

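The authors aligned paired-end reads to GRCm39 with STAR and quantified them with Salmon through an nf-core pipeline, per the labels and methods. They deposited estimated counts per gene (not normalised) and TPM (scaled for length and depth); annotation release and strandedness were not given in the sources used here. The members and gene lists were chosen with earlier results of these data known. Counts were rounded and fitted per comparison with edgeR 4.0.16 in R 4.3.3 (TMM, robust quasi-likelihood F test, a minimum of 10 counts in a number of mice equal to the smaller group, sex and age as covariates, strain when pooled), with Benjamini-Hochberg adjustment at 0.05 over all genes tested. Age was left out of the fits of sham mice between time points, since it follows the time point. Normalised CPM used TMM over 200 mice. Named members were those called in a comparison of CHI with sham (in all strains at 9 h, the 6 of smallest p in each direction), the 8 of smallest p at 9 h and 2 at 24 and 72 h, the core genes, the highest by TPM in each role group, up to 6 called per test of a difference, Stx11, and up to 4 partner genes per list by p at 9 h. Cplx3 at 24 h, Syt3, Syt6, Syt14, Syt15, Syt16, Stx2, Stx4a, the overlapping genes, the markers and the partners named at 24 h were chosen after their values were seen. One member is counted among the members but not reported here by name. Gene positions were taken from GENCODE M39 (GRCm39). Tests were checked on simulated data: in all strains at 9 h edgeR recovered 81 of 100 genes changed by 0.5 on the log2 scale and 100 of 100 changed by 1, with 10 false calls, and in C57BL/6J at 9 h 55 and 85 of 100, with 7 false calls. The simulated mice did not differ by strain, sex, age, experiment or tissue. Changes smaller than 0.5 were not simulated, and the members called in all strains at 9 h, apart from Syn3, changed by less. Alternatives were DESeq2 1.42.0 with size factors or gene-length offsets, RLE factors, other filters, no covariates, experiment in place of age, single experiments, leaving out each sham mouse, and tissue scores.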

Additional observations from a re-analysis of the deposited data

Results flagged for a closer look

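Each of 12 members was checked in all 16 groups of 4 to 10 mice, and 12 values stood far from the rest of their group. Chance flags about 1 in 20 such checks, which is near the share found over the 12 members together. The checks share mice, so they are not independent. All values are given in normalised CPM. Unc13c had the most: the highest mouse was at 140.8 in IL-1R1 gKO sham at 9 h (others 44.8 to 61.5), at 216.7 in IL-1R1 gKO sham at 72 h (others 97.4 to 140.4), at 188.3 in C57BL/6J sham at 72 h (others 130.8 to 152.3), at 126.994 in IL-1R1 eRestore sham at 24 h (others 122.05 to 122.7) and at 177.6 in IL-1R1 nRestore CHI at 24 h (others 96.0 to 122.6).

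Stx6 was lowest at 72.15 in IL-1R1 gKO sham at 72 h (others 80.1 to 84.8) and highest at 107.2 in IL-1R1 nRestore CHI at 9 h (others 95.3 to 98.01). Syt13 was lowest at 159.6 in IL-1R1 gKO sham at 72 h (others 215 to 237) and at 210.2 in IL-1R1 eRestore sham at 24 h (others 222 to 223). The mouse at 159.6, replicate 3, was also the one with 216.7 of Unc13c. Sv2b was lowest at 438.7 in IL-1R1 nRestore CHI at 72 h (others 514 to 542). Syn2 was highest at 492.9 in C57BL/6J sham at 72 h (others 412 to 442), and Unc13a was highest at 385.9 in IL-1R1 gKO sham at 24 h (others 303 to 323).

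The CHI effect differed between time points by the test of the difference itself (edgeR, log2 scale). From 9 to 24 h the differences were 0.21 for Stx6, 0.24 for Vamp4, 0.33 for Syt12, 0.25 for Syt13, -0.48 for Unc13c and -0.51 for Syt10. From 9 to 72 h they were 0.19 for Stx6, 0.61 for Syn3, 0.22 for Vamp4, 0.21 for Stx17, 0.23 for Syt12 and 0.26 for Sv2b. Experiment and time point cannot be told apart in these tests.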

How the results depend on the processing

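Counts of called members by edgeR were recomputed under each alternative, with the strains together unless said. At 9 h, 18 became 10 with DESeq2 and gene-length offsets, and 2, 9 and 9 in TM-2-33, eIL-1-76 and eIL-1-80 alone. At 24 h, 3 became 1 with the experiment in place of age, without covariates, without the count filter and with a striatum score. In C57BL/6J at 9 h, 11 became 7 without covariates and 7 without the filter, and 7 to 12 without 1 sham mouse. In IL-1R1 eRestore at 9 h, 9 became 18 with DESeq2 size factors, 4 with a choroid plexus score, 4 with a striatum score, 3 without mice rich in Ttr, and 5 to 18 without 1 sham mouse. Counts of 0 became 1 or 2 as follows: with DESeq2 size factors, 1 in C57BL/6J at 24 h, 1 in IL-1R1 eRestore at 24 h, 2 in IL-1R1 gKO at 24 h, 1 in IL-1R1 gKO at 9 h and 2 in IL-1R1 nRestore at 9 h; with gene-length offsets, 1 in IL-1R1 eRestore and 2 in IL-1R1 gKO at 24 h; without the filter, 1 in C57BL/6J at 24 h and 2 in IL-1R1 nRestore at 9 h; with the experiment in place of age, 1 in IL-1R1 gKO at 9 h, where leaving out 1 sham mouse gave 0 to 1. Without 1 sham mouse the other single-strain comparisons stayed at 0. With a striatum score, 38 members differing between sham mice at 9 and 72 h became 21. The scores and the limit on Ttr were added after seeing the data. The cause of these changes was not tested.

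Of the called and core genes, the only ones followed through every alternative, the signs of log2 fold changes turned at 9 h only for core genes that were not called: in TM-2-33 alone Cplx1 had -0.0736, Sv2a -0.0100, Syn1 -0.0317 and Syt1 -0.0419; in eIL-1-80 alone Cplx1 had -0.0049 and Snap25 -0.0563; in eIL-1-76 alone Unc13a had 0.0127; and Stx1a had -0.0115 with a choroid plexus score, -0.0150 with a striatum score and -0.0508 without mice rich in Ttr. Other uncalled members turned too, such as Vamp8 with 0.21 in TM-2-33 alone against -0.19 in the 3 experiments together. No paired analysis was possible because each mouse has a number of its own and no label pairs CHI with sham mice. Counting error is small at these depths for most members; low members such as Syt10, Syt15 and Stx11 rest on few counts.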
